A study of Mus musculus with 6 samples.

Results

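The regions described here were bound by both HOXA13 and HOXD13 in mouse forelimb buds and lay outside every region listed for H3K27ac and for CTCF. They were chosen by the overlaps of the called peaks, and so by the measured ChIP signals of these libraries: on chromosomes 1 to 19 and X, lines with the same interval were collapsed to 1 region, and a region was kept when it overlapped a HOXD13 region by at least 1 bp and overlapped none of the 4 lists of H3K27ac and CTCF. This left 23663 of 66761 HOXA13 regions, called bare joint sites below. The remaining HOXA13 regions were 13944 joint sites with H3K27ac and without CTCF, 3754 joint sites with CTCF, 17703 regions of HOXA13 alone without H3K27ac or CTCF, and 7697 of HOXA13 alone with either mark.

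All lists came from wild-type mouse embryos. The 6 samples were ChIP-seq libraries of strain B6CBAF1, made from distal forelimb (DFL, the future digits) and proximal forelimb (PFL, the future forearm and upper arm), titled E12 and described as E12.5 in the design text, with each piece profiled for H3K27ac, H3K27me3 and CTCF. The 2 HOX13 lists were named for E11 forelimb, came from whole buds according to the methods, and belonged to none of the samples. All were public libraries that the study processed again, and the number of embryos behind each is not given in the sources used here. Each list rested on 1 library, with no replicate and no input control, so no p-value was computed and every interval below is a 95% interval for counting error only.

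HOXA13 and HOXD13 are the last members of their Hox clusters to be switched on in the limb, in the cells that form the hand. Their homeodomains prefer a TAAA core that is different from the TAAT core of most other homeodomain proteins. HOX13 proteins are known both to activate digit enhancers, as in C-DOM, the regulatory landscape on the Evx2 side of HoxD, and to bind in T-DOM, the landscape on the Hoxd1 side, whose forearm enhancers are turned off in digit cells. H3K27ac is a mark of active enhancers and promoters, H3K27me3 is the mark of Polycomb repression, and CTCF is a protein found at many domain borders. Bare joint sites therefore are places of HOX13 occupancy at which neither H3K27ac nor CTCF was listed at the later stage. Other signs of activity were not part of the rule. A missing region means that no peak passed the q-value of 0.05 in that library, not that the mark was absent.

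The HOXA13 summits of 12 bare joint sites are shown, because they include the sites ranked highest over the genome and in the Hox landscapes and let the letters under the summit be read beside the values. Each window is the HOXA13 summit and 50 bases to each side, from the plus strand of GRCm38 (mm10), 5′ to 3′. Capitals mark CAATAAA or CATAAA or CGTAAA or CTATAAA or TTGTAAA or TAATAAA on either strand, so that TTTATTG is CAATAAA read on the other strand. None of the windows overlapped an annotated exon.
chromosome 9 site near Uaca and Tle3, chr9:61084937-61085037: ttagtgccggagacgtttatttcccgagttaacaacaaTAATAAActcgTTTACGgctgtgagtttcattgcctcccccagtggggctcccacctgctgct
Cntfr intron site, chr4:41672233-41672333: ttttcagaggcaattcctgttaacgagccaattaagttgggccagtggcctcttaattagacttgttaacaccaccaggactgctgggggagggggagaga
Schip1 intron site, chr3:68160332-68160432: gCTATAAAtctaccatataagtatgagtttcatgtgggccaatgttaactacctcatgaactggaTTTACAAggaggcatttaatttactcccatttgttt
Cntn6 intron site, chr6:104688909-104689009: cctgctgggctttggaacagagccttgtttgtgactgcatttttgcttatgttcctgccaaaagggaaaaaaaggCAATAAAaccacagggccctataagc
site near Tmem132e, chr11:82528545-82528645: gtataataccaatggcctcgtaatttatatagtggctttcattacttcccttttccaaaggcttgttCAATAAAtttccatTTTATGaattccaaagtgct
site near Drd1, chr13:53993164-53993264: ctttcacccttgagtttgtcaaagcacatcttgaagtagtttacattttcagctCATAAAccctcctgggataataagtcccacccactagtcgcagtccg
strongest C-DOM site, chr2:73977604-73977704: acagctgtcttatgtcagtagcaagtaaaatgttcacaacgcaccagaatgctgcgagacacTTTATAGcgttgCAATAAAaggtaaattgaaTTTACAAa
strongest T-DOM site, chr2:75252959-75253059: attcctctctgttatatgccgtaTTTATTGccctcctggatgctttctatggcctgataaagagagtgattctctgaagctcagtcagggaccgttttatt
next T-DOM site, chr2:75012029-75012129: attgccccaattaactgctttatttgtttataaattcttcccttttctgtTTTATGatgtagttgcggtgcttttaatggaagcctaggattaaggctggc
last of the T-DOM sites named, chr2:75403867-75403967: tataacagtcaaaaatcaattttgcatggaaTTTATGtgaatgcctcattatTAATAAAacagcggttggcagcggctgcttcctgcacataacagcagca
strongest site between Hoxa13 and Jazf1, chr6:52476901-52477001: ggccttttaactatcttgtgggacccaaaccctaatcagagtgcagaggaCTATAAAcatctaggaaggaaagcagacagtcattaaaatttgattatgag
Ak8 intron site, chr2:28797727-28797827: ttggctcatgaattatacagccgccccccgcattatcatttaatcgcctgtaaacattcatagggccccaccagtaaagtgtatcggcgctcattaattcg

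The first window held TAATAAA and, on the opposite strand, CGTAAA, which covered the summit base. The C-DOM window held 3 marked words, CTATAAA and CAATAAA and TTGTAAA. By contrast the Cntfr and Ak8 windows held none of the 6 words, although both sites were among the strongest. A match to a word is a description of the letters and was not tested as a binding site.

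By rank of HOXA13 and HOXD13 fold together, the site at chr9:61084707-61085258 was first. Fold is the summit pileup over the local background as the peak caller gives it, and the number of fragments piled up at the summit was worked back from it and the −log10 p. That site had a HOXA13 fold of 23.17 with 535 fragments at the summit (exact Poisson interval 491 to 582) and a HOXD13 fold of 24.25 with 400 fragments (362 to 441). It lay in an intron of the noncoding gene Gm34004, and its nearest H3K27ac region was 26770 bp away in DFL and 26772 bp away in PFL, with H3K27me3 regions 1188 bp away in DFL and 1043 bp away in PFL. The summits of the factors were 3 bp apart.

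The second site, chr4:41672142-41672550, lay in an intron of Cntfr, which encodes the receptor of ciliary neurotrophic factor, with a HOXA13 fold of 23.00 and a HOXD13 fold of 24.21. The third, chr3:68160025-68160664, was in an intron of Schip1 with folds of 21.07 for HOXA13 and 18.26 for HOXD13. The fourth, chr6:104688545-104689279, was in an intron of Cntn6, a neural cell adhesion gene, with folds of 20.40 and 19.76 in the same order. There H3K27ac was listed no nearer than 987939 bp in DFL and 748167 bp in PFL, CTCF was listed no nearer than 208884 bp, and H3K27me3 no nearer than 877012 bp in DFL and 876953 bp in PFL. This site, with 428 HOXA13 and 361 HOXD13 fragments, thus lay far from the listed H3K27ac, CTCF and H3K27me3 regions.

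Of the next 4 sites, none lay in a gene body of the annotation: chr11:82528303-82528890 with a HOXA13 fold of 19.23, chr13:53992893-53993527 with 22.10, chr18:76448256-76448875 with 22.51, and chr12:94574838-94575467 with 20.53. The last of these was 1117075 bp from the nearest protein-coding gene, Flrt2. The first was 82263 bp from Tmem132e and the second 57969 bp from Drd1. The list of 10 closed with an intron of Disc1 (chr8:125156879-125157571, fold 18.10) and an intron of Rnf150 (chr8:82889072-82889755, fold 19.54). Across all 10, HOXD13 folds ran between 17.51 and 24.25, and the summits of the factors were at most 50 bp apart. None of the 10 was within 2 kb of a start of a basic GENCODE transcript.

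The class was not made of the weakest binding. Bare joint sites had a median HOXA13 fold of 4.22 (quartiles 3.24 and 5.95), against 4.78 (3.52 and 6.92) for joint sites with H3K27ac, 4.22 (3.24 and 5.91) for joint sites with CTCF and 2.82 (2.59 and 3.24) for HOXA13 alone without a mark. In fragments at the summit the medians were 34, 41, 33 and 21 in the same order of classes. HOXD13 folds had a median of 3.56 in bare joint sites, against 4.13 in joint sites with H3K27ac. The distributions of the joint classes overlapped over most of their range, and only HOXA13 alone stood clearly lower. The rule itself asks for a HOXD13 overlap, so the comparison with HOXA13 alone is a description.

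A HOXA13 fold of at least 10 was reached by 5.44% of bare joint sites (interval 5.16 to 5.74%, 1287 sites), against 9.69% (9.21 to 10.2%) of joint sites with H3K27ac. Over all HOXA13 regions the share was 4.26%. Read the other way, bare joint sites made up 43.0% of the 100 joint sites of highest HOXA13 fold (33.7 to 52.8%), 43.0% of the highest 1000 (39.96 to 46.1%) and 57.2% of all 41361. The strongest joint binding thus held a smaller share of bare sites than the whole. Joint sites with H3K27ac made up 43% of the highest 100, 50% of the highest 1000 and 33.7% of all.

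**Figure D1:**
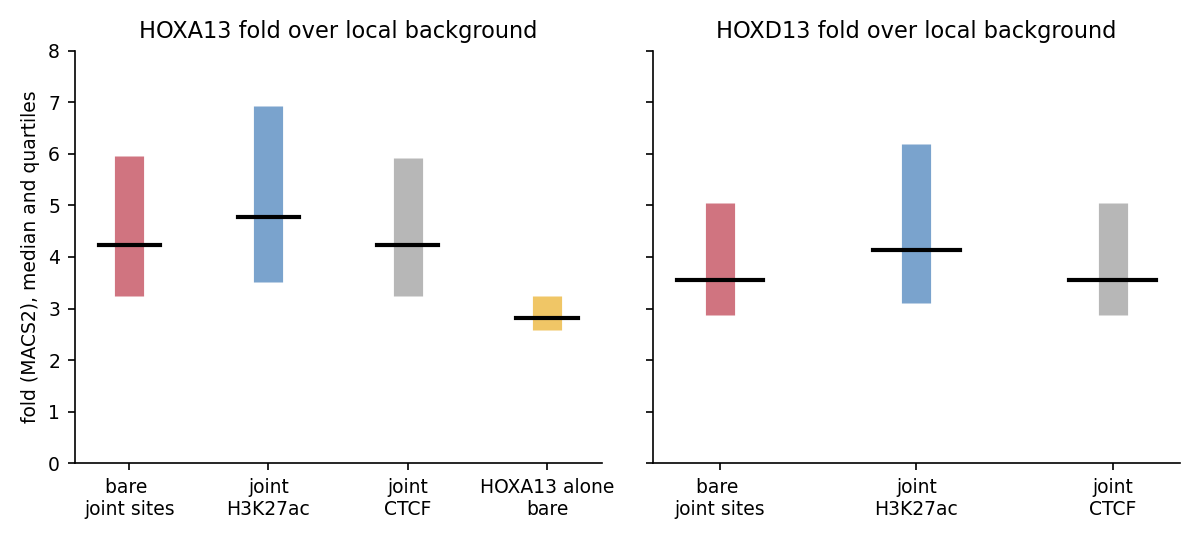
Fold over local background (vertical axis, no unit) of HOXA13 (left panel) and HOXD13 (right panel) by class of region, from 1 library each. Black lines are medians and coloured bars span the quartiles over regions. The HOXA13 median of bare joint sites, 4.22, lies between that of joint sites with H3K27ac, 4.78, and that of HOXA13 alone, 2.82.

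At the border of the rule, the smallest overlap with a HOXD13 region among bare joint sites was 2 bp, and 21 sites had less than 10 bp, against a median overlap of 278 bp. On the side of the marks, 110 bare joint sites lay within 10 bp of an H3K27ac or CTCF region that they did not overlap, and 103 joint sites were left out for an overlap of less than 10 bp. Among the regions of HOXA13 alone without a mark, 25 lay within 10 bp of a HOXD13 region. At a margin of 10 bp the border therefore concerned few of the 23663 sites. With no H3K27ac or CTCF region allowed within 1000 bp, 19725 sites remained.

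The summits of the factors lay near each other, which the rule favours in part because it asks for overlapping regions. The HOXA13 and HOXD13 summits of bare joint sites were a median of 34 bp apart (quartiles 15 and 69), against 35 bp (15 and 76) in joint sites with H3K27ac. In 64.7% of bare joint sites (64.1 to 65.3%) the summits were at most 50 bp apart, against 62.5% (61.7 to 63.3%) of joint sites with H3K27ac. Stronger sites had closer summits: the median distance was 53 bp in the weakest of 5 equal groups of bare joint sites by HOXA13 fold and 19 bp in the strongest. In joint sites with H3K27ac, grouped in the same way, these medians were 66 and 18 bp.

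Posterior HOX words were concentrated under the summits. CAATAAA was present on either strand in 13.9% of the windows of bare joint sites (13.4 to 14.3%), against 2.75% of equally long windows centred 500 bp away on either side. CGTAAA was in 3.58% of the windows (3.35 to 3.82%), against 0.786% of the flanks. CATAAA was in 25.01%, against 8.49% of the flanks, and TAATTA, the core of many other homeodomain proteins, in 10.6%, against 4.34%. The longer forms followed the same order, with CCAATAAA in 4.66% against 0.452% and CTCGTAAA in 1.03% against 0.0317% of the flanks. CCAATAAA holds CAATAAA and CTCGTAAA holds CGTAAA, so these counts overlap. Over all HOXA13 regions the same window held CAATAAA in 10.7%, CGTAAA in 3.64%, CATAAA in 20.8%, TAATTA in 7.81%, CCAATAAA in 3.75% and CTCGTAAA in 1.08%.

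The share with a word varied by class. CAATAAA was in 13.9% of bare joint sites, against 9.37% (8.89 to 9.86%) of joint sites with H3K27ac, 8.39% of joint sites with CTCF and 10.1% of HOXA13 alone without a mark. CGTAAA, which holds a CpG, did not follow this order: 3.58% in bare joint sites, against 3.67%, 3.92% and 3.96% in the same classes. TAATTA was in 10.6% of bare joint sites, against 6.03% of joint sites with H3K27ac. The E-box CAGCTG, bound by many basic helix-loop-helix proteins, went the other way, with 6.19% (5.89 to 6.50%) of bare joint sites against 9.06% (8.59 to 9.55%) of joint sites with H3K27ac.

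At least 1 of CAATAAA and CATAAA and CGTAAA was in 38.7% of bare joint sites (38.0 to 39.3%) and in 11.7% of their flanks. Joint sites with H3K27ac had 30.8% (30.01 to 31.5%), and 9.48% of their flanks. Windows with 2 or more of these words were 7.43% of bare joint sites (7.10 to 7.77%), against 4.53% (4.19 to 4.88%) of joint sites with H3K27ac. With the 6 words that are in capitals above, of which CTATAAA and TTGTAAA and TAATAAA were added after their counts were seen, the shares were 57.3% of bare joint sites and 46.1% of joint sites with H3K27ac. By density, the 3 words reached 5.35 matches per kb in the 20 bp just before the summit of bare joint sites, against 3.97 in joint sites with H3K27ac.

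**Figure D2:**
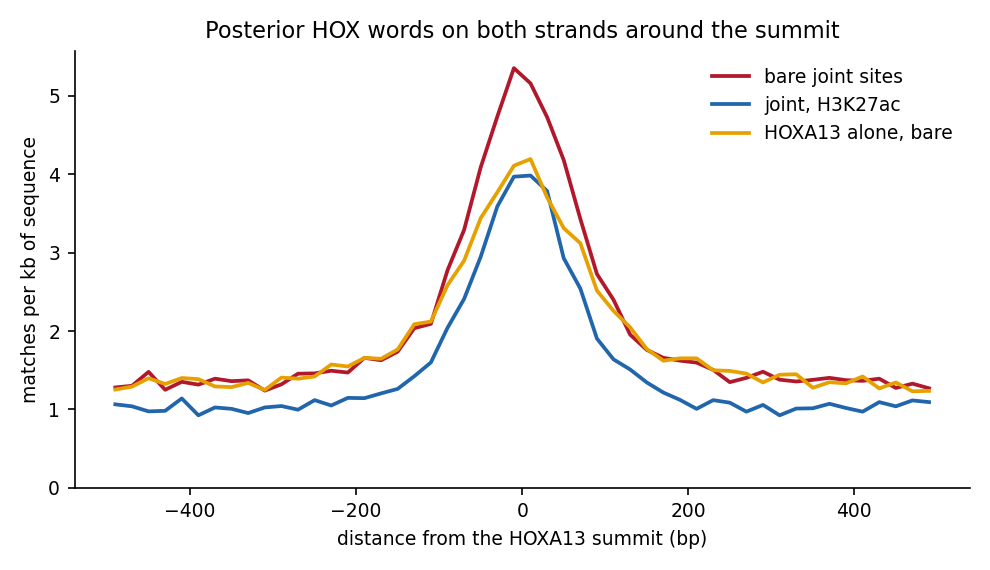
Matches of CAATAAA and CATAAA and CGTAAA on both strands per kb of sequence (vertical axis) by distance from the HOXA13 summit in bp (horizontal axis), in bins of 20 bp, for 3 classes of HOXA13 region. Bare joint sites reach 5.35 matches per kb at the summit and 1.28 at the left edge, and joint sites with H3K27ac 3.97 and 1.06.

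Base composition differed too, and was a measured companion of the word counts. Windows of bare joint sites had a mean GC content of 40.9% (SD 7.33 over sites), against 45.7% (SD 8.52) in joint sites with H3K27ac, and 58.5% of them held a CpG, against 74.2%. Within bins of equal GC content the shares with any of the 3 words differed less. Below 35% GC these were 47.5% of bare joint sites (46.2 to 48.8%) against 41.9% (39.3 to 44.6%) of joint sites with H3K27ac, and at 50% GC and above 24.8% (23.2 to 26.5%) against 19.9% (18.7 to 21.2%). From 35 to 40% GC the shares were 42.0% (40.8 to 43.3%) against 39.3% (37.3 to 41.3%), and from 45 to 50% GC 32.1% (30.7 to 33.6%) against 29.5% (27.9 to 31.1%), with intervals that overlap in both bins. Bare joint sites had the higher share in each of the 5 bins, by a smaller margin than over all sites. This split by GC was added after the data were seen.

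The share with a word was higher at stronger sites. In the weakest of the 5 groups of bare joint sites, 32.6% (31.3 to 33.95%) held at least 1 of the 3 words, and in the strongest 45.01% (43.6 to 46.4%). Joint sites with H3K27ac, divided in the same way, had 20.5% (19.02 to 22.01%) in their weakest group and 41.7% (39.9 to 43.5%) in their strongest. The intervals of the classes lay farther apart in the weakest groups than in the strongest. Base composition and position moved with this in joint sites with H3K27ac, where mean GC content was 47.5% in the weakest group and 44.2% in the strongest and the share over 2 kb from a start was 59.1% and 88.2%. In bare joint sites these were 40.7% and 41.0% GC, and 90.4% and 94.2% over 2 kb away, and their part in the word shares was not tested. The strongest group began at a fold of 6.51 in bare joint sites and 7.64 in joint sites with H3K27ac.

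**Figure D3:**
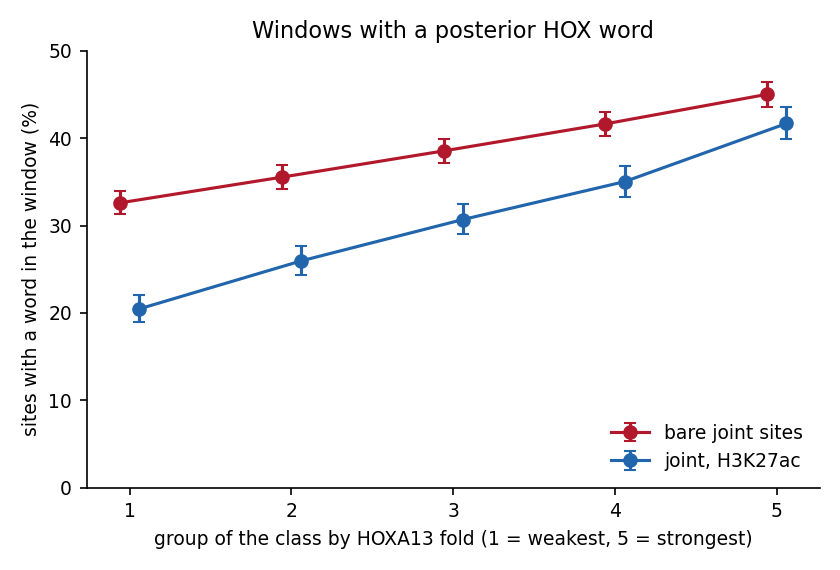
Share of sites (vertical axis, percent) whose window of 50 bases to each side of the summit holds CAATAAA or CATAAA or CGTAAA, in 5 equal groups of each class by HOXA13 fold (horizontal axis, low to high). Bars are 95% Wilson intervals for counting error. Bare joint sites go from 32.6 to 45.01% and joint sites with H3K27ac from 20.5 to 41.7%.

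Apart from CAGCTG, in 3.79% of the flanks of bare joint sites, and TAATTA, in 4.34% of them, the words of other factors were less frequent, or little more frequent, at the summits than in the flanks. AGATAA, the GATA factor word, was rarer under the summits of bare joint sites than in their flanks, 4.18% against 6.94%, and so was TGACAG, the word of MEIS proteins, 5.80% against 6.86%. Words of SOX (ACAAAG, 8.56% against 9.27%), AP-1 (TGANTCA, 2.83% against 3.03%) and TEAD (GGAATG, 5.88% against 5.42%) were close to their flanks. The CTCF motif was in 0.279% of bare joint sites, against 4.26% of joint sites with CTCF. Over all HOXA13 regions the shares were 4.11% for AGATAA, 6.08% for TGACAG, 9.15% for ACAAAG, 2.81% for TGANTCA, 6.35% for GGAATG, 6.89% for CAGCTG and 0.707% for the CTCF motif. Repeat-masked letters made up 11.5% of the windows of bare joint sites on average and 9.42% of those with H3K27ac.

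Most bare joint sites were more than 2 kb from a gene start, as were most HOXA13 regions. Starts were those of the basic GENCODE transcripts, so a gene end outside that set was not counted. Summits of bare joint sites were more than 2 kb from any such start in 92.5% (92.1 to 92.8%). This compares with 74.2% (73.5 to 74.9%) of joint sites with H3K27ac and 91.1% (90.6 to 91.5%) of HOXA13 alone without a mark. Over all HOXA13 regions the share was 84.0% (83.7 to 84.3%). The median distance to a start was 22868 bp in bare joint sites, against 13738.5 bp in joint sites with H3K27ac and 17833 bp over all HOXA13 regions. Summits of bare joint sites lay in introns in 48.0%, between genes in 42.5%, within 2 kb of a start in 7.51% and in other exons in 1.97%. The rule leaves out sites with H3K27ac, a mark that active promoters carry, so the comparison with acetylated sites is a description.

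By chromosome, bare joint sites were most numerous on chromosome 2 (1861) and densest on chromosome 8 (11.2 per Mb). The X chromosome had 375, or 2.19 per Mb, but its share of HOXA13 regions that were bare joint sites, 39.1%, was near the 39.8% of chromosome 8. Chromosome 11 had the lowest share, 29.7%. Neighbouring bare joint sites were a median of 47938 bp apart, and 17.2% of neighbours were within 10000 bp.

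The rule left no bare joint site on an H3K27ac region, so distances to H3K27ac are given as a description. The nearest H3K27ac region was a median of 18997 bp away in DFL and 16687 bp away in PFL, and 8.98% of bare joint sites had a DFL and 8.65% a PFL H3K27ac region within 1000 bp. In HOXA13 alone without a mark, chosen with the same lists, these shares were 9.86% and 10.5%. For 20.9% (20.4 to 21.4%) of bare joint sites neither piece had an H3K27ac region within 50 kb, close to the 19.6% (19.05 to 20.2%) of HOXA13 alone without a mark. The nearest one was a DFL region in 40.9% of bare joint sites (40.2 to 41.5%) and a PFL region in 59.0%, while 46.2% of all H3K27ac regions of the pair of lists were from DFL. With the PFL list reduced to its 59804 strongest regions, the number in the DFL list, the DFL share was 45.1%, with as many DFL as PFL regions in the lists. In HOXA13 alone without a mark, with the full lists, it was 38.5% (37.7 to 39.2%).

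Few bare joint sites overlapped a listed H3K27me3 region, and few of all HOXA13 regions did. DFL H3K27me3 overlapped 211 bare joint sites, 0.892% (0.780 to 1.02%), where it overlapped 1.24% of all HOXA13 regions. PFL H3K27me3 overlapped 501, 2.12% (1.94 to 2.31%), where it overlapped 2.38% of all. In joint sites with H3K27ac the shares were 0.760% (0.629 to 0.919%) in DFL and 1.81% (1.61 to 2.05%) in PFL, and in HOXA13 alone without a mark 1.55% (1.38 to 1.75%) and 2.49% (2.27 to 2.73%). Neither H3K27me3 list overlapped 97.8% of bare joint sites (97.6 to 98.0%), nor 97.5% of all HOXA13 regions. H3K27me3 forms wide domains, and the lists hold short stretches of them, with a median length of 629 bp in DFL and 588 bp in PFL.

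Among the sites with H3K27me3, 22 were marked only in the DFL list, 312 only in the PFL list and 189 in both lists. The DFL library had the lower solved background, at least 3.06 fragments in DFL and 4.75 in PFL, and the DFL list had 9083 regions, against 13873. With the PFL list reduced to 9083 regions the PFL share was 1.42%, still above the 0.892% of DFL, but depth was not equalised and the difference between the pieces cannot be told apart from it. Sites marked in both pieces were nearer to genes, with a median distance to a start of 2578 bp, against 23344 bp in sites marked in neither. Their windows had a mean GC content of 47.6%, against 40.7%, and 28.6% of them held at least 1 of the 3 words, against 38.8%. Among the genes with most of them within 50 kb were Gbx2 with 3, and Foxc2, Foxd3, Foxf1, Foxl1, Neurog2, Mthfsd and Mtor with 2 each. Foxc2, Foxf1, Foxl1 and Mthfsd are all on chromosome 8, and the window can count the same sites for neighbouring genes. Gbx2, Neurog2 and the Fox genes encode developmental transcription factors, and Mthfsd and Mtor do not. These genes were picked after their counts were seen.

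The strongest bare joint site with PFL H3K27me3 was chr2:28797320-28798192, in an intron of Ak8, with folds of 17.52 for HOXA13 and 19.23 for HOXD13. Its PFL H3K27me3 region had a fold of 2.94 and a −log10 q of 4.16, and the nearest DFL region was 110010 bp away. Next came chr6:136792786-136793851 near Hist4h4 (HOXA13 fold 12.82) and chr14:46566783-46567637, 176520 bp from the start of Bmp4 (12.61), a ligand that acts in digit formation. The list of 5 also held chr9:57999168-57999856 near Cyp11a1 (11.19), with 4 matches of the 6 words in its window. The strongest with DFL H3K27me3 was chr19:43652987-43653843, marked in both pieces, with a HOXA13 fold of 11.29 and H3K27me3 folds of 2.79 in DFL and 3.85 in PFL. Next came chr12:117805862-117806471 in an intron of Cdca7l (9.90) and chr12:106478759-106479985, 401959 bp from Vrk1 (9.66), each marked in both pieces. An intron of Camk1d held chr2:5379069-5379366, whose H3K27me3 was the highest of the sites named, with folds of 7.87 in DFL and 11.31 in PFL beside a HOXA13 fold of 9.01. At the Pdgfa promoter, 262 bp from the start of this growth factor gene, chr5:138997386-138997812 had a HOXA13 fold of 8.76 and H3K27me3 folds of 2.46 in DFL and 2.03 in PFL. These folds come from separate libraries and are not on 1 scale.

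Both landscapes around HoxD held bare joint sites. C-DOM, taken as chr2:73950001-74652990, held 24 bare joint sites among 79 HOXA13 regions, 30.4% (21.3 to 41.2%), beside 28 joint sites with H3K27ac. T-DOM, taken from chr2:74765143 onward over 889.9 kb, held 37 among 84, 44.0% (33.9 to 54.7%), beside 21 with H3K27ac. The HoxD cluster itself, from Evx2 to Hoxd1, held 5 among 21, beside 9 with H3K27ac. Over the genome the share of HOXA13 regions that were bare joint sites was 23663 of 66761, and the intervals of both landscapes overlap each other.

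The strongest of the T-DOM sites was chr2:75252615-75253332, in an intron of the noncoding gene 2600014E21Rik, with a HOXA13 fold of 20.42 and 652 fragments at the summit (603 to 704) and a HOXD13 fold of 16.93 and 444 fragments (404 to 487). H3K27ac was listed at a distance of 8031 bp in DFL and of 8009 bp in PFL, and CTCF at 1760 bp. It was followed in T-DOM by chr2:75011644-75012409 (HOXA13 fold 11.57), 220 bp from a PFL H3K27me3 region, and by chr2:75403516-75404170 (10.54). In C-DOM the strongest, chr2:73977265-73977998, had a HOXA13 fold of 9.12 and a HOXD13 fold of 9.29, and it overlapped a PFL H3K27me3 region of fold 2.15. The next C-DOM sites, chr2:74020660-74021419 and chr2:74536794-74537440 in an intron of Lnpk, had HOXA13 folds of 5.996 and 5.72.

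Of the 37 bare joint sites of T-DOM, 3 overlapped DFL and 3 overlapped PFL H3K27me3, where over all bare joint sites 0.892% and 2.12% did, and chr2:75059969-75060362 was marked in both pieces, with folds of 2.28 in DFL and 2.07 in PFL. The DFL-marked sites chr2:75314712-75315000 and chr2:75315473-75315738 had the same DFL H3K27me3 fold, 2.58, and may lie on the same H3K27me3 region. Of the 24 of C-DOM, none overlapped DFL and 3 overlapped PFL H3K27me3. These counts are too small for the shares of the pieces to be set apart.

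**Figure D4:**
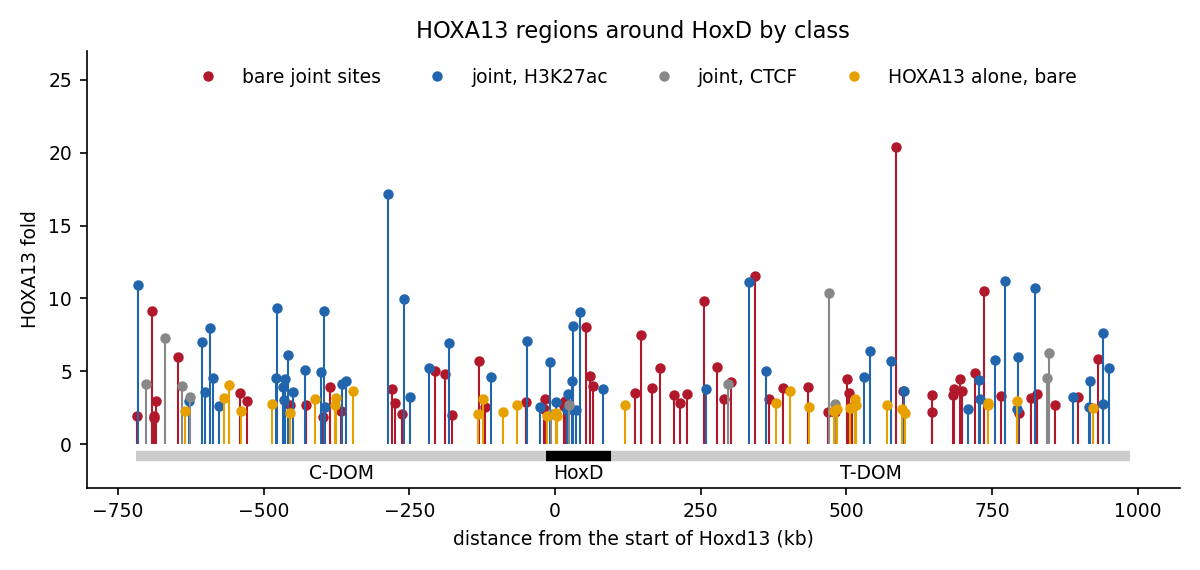
HOXA13 fold (vertical axis) of HOXA13 regions in C-DOM, the HoxD cluster and T-DOM by distance of the summit from the start of Hoxd13 in kb (horizontal axis), coloured by class; regions of HOXA13 alone with H3K27ac or CTCF are left out. Grey and black bars mark the intervals. The highest bare joint site, of fold 20.42, stands in T-DOM.

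The Hox clusters were compared after the data were seen, and 3 of them are given here, with shares whose intervals all overlap. From Hoxc13 to Hoxc4, 10 of 14 HOXA13 regions were bare joint sites (71.4%, 45.4 to 88.3%) and 2 were joint sites with H3K27ac. From Hoxb13 to Hoxb1, 8 of 14 were bare (57.1%, 32.6 to 78.6%) and none of the joint sites had H3K27ac. From Hoxd13 to Hoxd1, 5 of 18 were bare (27.8%, 12 to 51%) and 8 were joint sites with H3K27ac and without CTCF. Genes of the HoxD cluster pattern the limb along its length.

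The bare joint sites of HoxC and HoxB differed in their surroundings. In HoxC the nearest H3K27ac region was 30 to 4148 bp away, while in HoxB it was 252 bp away at 1 site and 12548 to 54596 bp away at the other 7. The strongest HoxC site, chr15:103014313-103014851, had a HOXA13 fold of 17.62 and a HOXD13 fold of 13.30 with 3 matches of the 3 words under its summit, and was 473 bp from an H3K27ac region. In HoxB, chr11:96281468-96282304 (HOXA13 fold 11.13) overlapped PFL H3K27me3 and chr11:96319134-96320228 (10.84), over Hoxb4, was 1301 bp from DFL and 807 bp from PFL H3K27me3. In HoxA the strongest, chr6:52190637-52191217, within 2 kb of a start and over Hoxa4 and Hoxa3, had folds of 12.75 for HOXA13 and 10.08 for HOXD13. The strongest in HoxD, chr2:74721064-74722278, over Hoxd3 and Hoxd4, had 8.04 and 7.63, followed by chr2:74727476-74727860 (HOXA13 fold 4.65) and chr2:74733419-74733795 (3.995).

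From Hoxa13 to Jazf1, the interval that holds digit enhancers of HoxA, 36 of 86 HOXA13 regions were bare joint sites (41.9%, 32.0 to 52.4%), beside 22 joint sites with H3K27ac. The strongest was chr6:52476632-52477220 with a HOXA13 fold of 13.67. The next, chr6:52467735-52468245 (9.22), lay 16 bp from a DFL H3K27ac region and 18098 bp from a PFL one, so its place in the class turned on a few bases. It was followed by chr6:52539875-52540477 (7.56), 6058 bp from the gene body of Hibadh.

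Gene lists were read as the share of genes with a bare joint site within 50 kb of the gene's start. Over 21701 protein-coding genes this share was 39.1%. All 30 genes of a distal limb list had such a site (88.6 to 100%), with a median of 4 sites, and so had 18 of 20 genes of a proximal limb list (90%, 69.9 to 97.2%), also with a median of 4. Within the distal list Hoxd10 had 7 sites, Hoxa13 and Hoxd11 had 6 each, and Epha3, Evx2, Hoxd12, Sall3, Sall4 and Tbx2 had 5 each. Epha3 encodes an ephrin receptor, and Sall3 and Sall4 encode zinc finger transcription factors. The window of 50 kb counts the same sites for neighbouring genes, as in the Hox clusters. The distal and proximal lists therefore share sites at HoxD. The intervals treat each gene as independent and are too narrow to that extent. In these lists the joint sites with H3K27ac are those without CTCF, and other HOXA13 regions with H3K27ac were not counted.

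Distal genes often had bare and acetylated joint sites together, the latter being those with H3K27ac and without CTCF. Hoxd13 had 4 bare and 10 acetylated joint sites within 50 kb, and Msx1, a transcription factor of the limb mesenchyme, had 2 and 4. Dlx5 and Dlx6 each had 4 bare and no acetylated joint sites. Grem1, the BMP antagonist that links the ridge to the zone of polarizing activity, had 2 and none, and Epha7 2 and none. Bare sites stood close to some starts: at 52 bp from the start of Msx2, 159 bp from that of Tbx2 and 786 bp from that of Sall4.

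Proximal genes were as rich in these sites. Hoxa10 had 9, Hoxa11 and Hoxa9 had 8 each, Hoxd9 had 7 and Tbx5, the factor that starts the forelimb, had 6. Hoxd8 and Pkdcc had 5 each. Irx5, Meis1 and Tbx15 each had 4. Meis1, a homeodomain factor of the upper arm, and Irx5 had no joint site with H3K27ac and without CTCF within 50 kb. Dlk1 and Pax1 had no bare joint site. The strongest sites within 50 kb were at Pkdcc, with a HOXA13 fold of 13.22, and at Hoxa9 and Hoxa10, with 12.75 at both, ahead of Alx4 with 10.55 and Meis2 with 10.50.

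The limb lists were not alone in this. All 9 forebrain factors, among them Emx1 and Pax6, genes of the developing forebrain, had a bare joint site within 50 kb (70.1 to 100%), and 3 of 9 had a joint site with H3K27ac (33.3%, 12.1 to 64.6%). Over all protein-coding genes 41.6% had a joint site with H3K27ac within 50 kb, a share inside the forebrain interval. In the distal list 86.7% of genes (70.3 to 94.7%) had a joint site with H3K27ac. Dlx1 had 5 bare sites, Dlx2 and Tbr1 had 4 each. Olfactory receptor genes had few of either, with a bare joint site at 7.86% (6.43 to 9.57%) and a joint site with H3K27ac at 3.44%. Ribosomal protein genes, active in every cell, had a bare joint site at 33.7% (25.1 to 43.5%) and one with H3K27ac at 59.2% (49.3 to 68.4%).

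The shares of the remaining lists lay between these. Hedgehog pathway genes had a bare joint site in 9 of 10 cases, with Boc, Gas1 and Hhip at 3 each, and Shh, the morphogen of the posterior limb margin, had 1 at 9896 bp from its start. Muscle genes had one in 7 of 10, among them Pax3 with 5 and Met with 3, and Lbx1, Mymk and Myog had none. Cartilage and joint genes had one in 9 of 14, led by Sox5 with 3 and Col9a1 and Gdf5 with 2, while Ihh, Matn1, Runx3, Sox9 and Wnt9a had none. Ridge and ectoderm genes had one in 6 of 12, with Sp8 at 4 and Fgf8 at 3 and with Epcam, Fgf17, Krt14, Krt5, Sp6 and Wnt7a at none.

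Endothelial and blood genes had a bare joint site in 5 of 9 cases, led by Erg with 4 and Tek with 3, with none at Gata2, Pecam1, Tal1 and Tie1. Tendon genes had one in 2 of 5, Egr2 and Tnmd with 2 each, and none at Egr1, Mkx and Scx. Neural adhesion and guidance genes had one in 14 of 24, led by Robo2 with 5, Negr1 with 4 and Slit3 and Unc5d with 3, and the genes with none included Cntn4, Cntn5, Cntn6, Cntnap2, Csmd1, Ctnna2, Dcc, Lsamp and Slit2. The Cntn6 intron site lay 196169 bp from the start, outside the window. These lists are small, and apart from olfactory receptors and ribosomal proteins their intervals are wide.

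**Figure D5:**
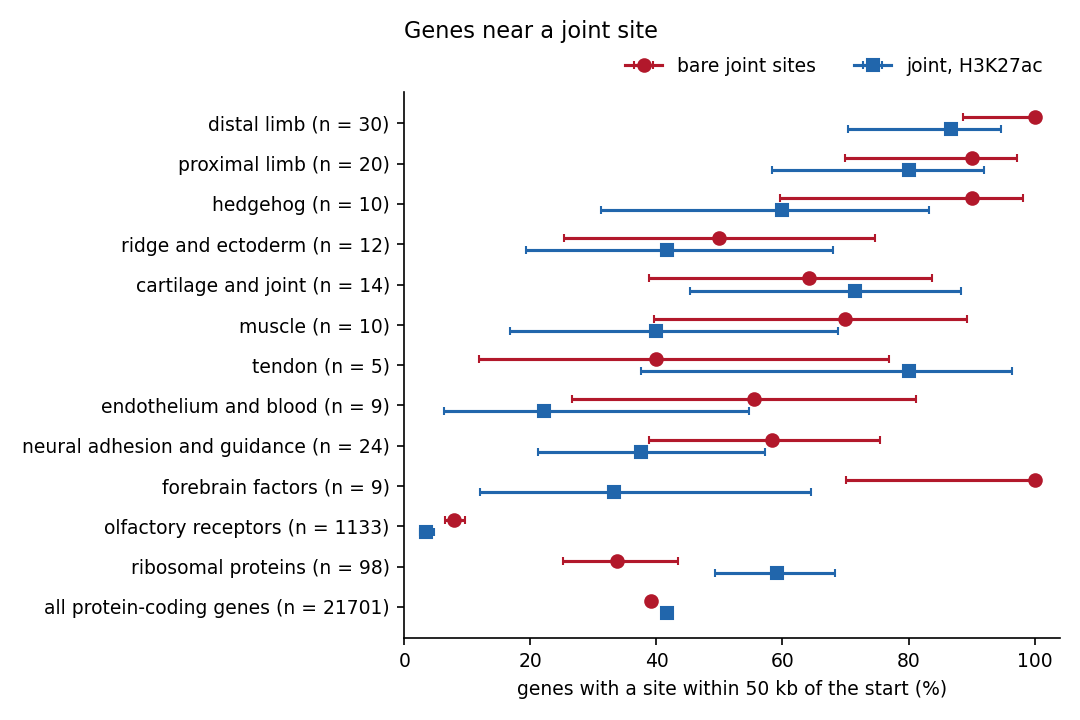
Share of genes (horizontal axis, percent) with a bare joint site (red circles) or a joint site with H3K27ac (blue squares) within 50 kb of the start, by gene list. Bars are 95% Wilson intervals for counting error and n is the number of genes. Distal limb and forebrain genes reach 100% for bare joint sites, and 86.7 and 33.3% for joint sites with H3K27ac.

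By count alone, Zfp608 on chromosome 18 had most bare joint sites within 50 kb of its start, 12, followed by Hoxc4, Hoxc6 and Hoxc8 with 11 each and Hoxc5 and Hoxc9 with 10 each. The list of 10 closed with Gm28308, Hoxa10, Hoxa3 and Hoxa5 at 9 each, a count that Hoxa6, Hoxc10 and Pmaip1 shared. The Hoxc genes count many of the same sites. Zfp608 had 6 joint sites with H3K27ac in the same window, and Pmaip1, which encodes a pro-apoptotic protein, had 1.

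As a check of the tissue, H3K27ac lay within 2 kb of a start of Tbx5, Prrx1, Hoxa13 and Meis1 in DFL and in PFL. At these genes the H3K27ac lists thus did not tell the pieces apart. H3K27ac was listed in neither piece at Pitx1, the hindlimb factor, or at the forebrain genes Emx1 and Tbr1. Emx1 and Tbr1 had H3K27me3 in both pieces. Tbx4, the other hindlimb factor, had H3K27ac and H3K27me3 in both pieces. Meis1 also had H3K27me3 in PFL, and the lists do not say whether this comes from the same cells.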

How the data were processed

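Peak lists of 8 wild-type mouse ChIP-seq libraries were used: H3K27ac, H3K27me3 and CTCF in DFL and PFL, and HOXA13 and HOXD13 in whole forelimb. The authors trimmed reads with cutadapt, mapped them to mm10 with Bowtie, kept those of mapping quality 30 or more with SAMtools, and called peaks with MACS2 at a q-value of 0.05 without input control, splitting regions at their summits. The deposited lists give each summit's fold ratio over the local background. They also give −log10 p and −log10 q as deposited by the authors, and the summit's offset.

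Lines with the same interval were collapsed to the strongest summit. The summit pileup was solved from fold and −log10 p, and was whole within 0.02 fragments for 100% of HOXA13 and 99.9981% of HOXD13 regions. Overlaps, distances to starts of basic GENCODE vM21 transcripts and word counts on GRCm38 were computed with Python 3.11.15, numpy 2.4.6, pandas 2.3.3 and scipy 1.17.1. Figures were made with matplotlib 3.10.9. The scripts were tested on simulated data. Shares have Wilson intervals and pileups exact Poisson intervals at 95%, for counting error only. Genes are 21701 protein-coding genes with a unique symbol, counted from the 5′ end.

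The class, the gene lists and the words were chosen with earlier results of these data known. Regions named were the 10 of best mean rank of HOXA13 and HOXD13 fold, the strongest 3 of each Hox interval and the strongest 5 overlapping H3K27me3 of each piece. Genes named were those of each list with most sites within 50 kb, those with none, and the 10 genes with most sites overall. Other genes are given as examples and were chosen after their values were seen. Alternatives changed the thresholds, the overlap, the window, the gene distance and the list sizes. Some genes of the lists are counted in the totals but not reported here by name.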

Additional observations from a re-analysis of the deposited data

How the results depend on the processing

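Of 88 values recomputed under alternatives, 49 stayed within the interval of the reported value, or for counts within 1.5 times, and 39 did not. With HOX13 regions at a −log10 q of at least 5, 13866 sites remained in the class, 12 in C-DOM and 24 in T-DOM, DFL H3K27me3 overlapped 0.685%, 93.2% were over 2 kb from a start, CAATAAA was in 15.1% and the median summit distance was 27 bp. With no H3K27ac or CTCF region within 1000 bp, the H3K27me3 shares were 0.715% in DFL and 1.71% in PFL, 94.4% were over 2 kb from a start, the nearest H3K27ac was from DFL in 39.5%, 3 sites lay in the HoxD cluster and 23 from Hoxa13 to Jazf1, and 86.7% of distal limb genes had a site. Counted over HOXD13 regions, H3K27me3 shares were 0.772% in DFL and 1.93% in PFL, CAATAAA was in 14.6%, CGTAAA in 3.83%, the summit distance was 35 bp and the DFL share of nearest H3K27ac 41.9%. With the HOXA13 summit inside a HOXD13 region, CAATAAA was in 14.4% and the summit distance was 30 bp.

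Within 1000 bp of an H3K27me3 region were 2.05% of sites in DFL and 3.89% in PFL. H3K27me3 regions at a −log10 q of at least 5 overlapped 0.520% in DFL and 1.37% in PFL, and lists of equal size gave 1.42% in PFL. Only strong H3K27ac and CTCF regions as exclusion gave a DFL share of nearest H3K27ac of 42.0%, and H3K27ac lists of equal size 45.1%. Protein-coding starts alone left 96.3% over 2 kb away. CAATAAA was in 7.33% of windows with 25 bases to each side of the summit, 21.9% of those with 100 and 14.7% of HOXD13-centred windows, and CGTAAA in 1.91%, 5.88% and 3.82% of these. Within 10 kb of the start 73.3% of distal and 65.0% of proximal limb genes had a site, and within 200 kb all proximal ones (100%). The causes of these shifts were not tested beyond the change in each setting itself.

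No paired analysis was possible because each list came from 1 library and no result comes from a test between groups of samples. Depth limits the weakest sites: no HOXA13 summit under 16 fragments and no HOXD13 summit under 19 was listed, so that binding below these levels was not detectable.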

Other observations

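The words that differed most between the strongest and the weaker bare joint sites were CCATAAA and TTGTAAA. In the 1287 sites with a HOXA13 fold of at least 10, CCATAAA was in 15.5% of the windows, against 8.05% of the 11638 sites of the weaker set, those below the median HOXA13 fold, and TTGTAAA was in 13.8%, against 7.18%. CAATAAA was in 16.8% and 11.9% of the same sets. All words of 7 letters were ranked on these counts, so the words were chosen after their counts were seen.

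A few sites lay in sequence that is hard to map. Over 90% of the window was repeat-masked in 109 bare joint sites, which had a median HOXA13 fold of 3.38. The first 50 kb of sequence on chromosome 9 held 8 bare joint sites among 15 HOXA13 regions.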
